A study of Saccharomyces cerevisiae with 10 samples.

Results

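The 10 genes described here encode enzymes that lead pyruvate to ethanol and acetate in budding yeast: the pyruvate decarboxylases *PDC1*, *PDC5* and *PDC6*, the alcohol dehydrogenases *ADH1*, *ADH2*, *ADH3*, *ADH4* and *ADH5*, and the aldehyde dehydrogenases *ALD4* and *ALD6*. They were chosen by gene name, as members of one metabolic route, and they are 10 of the 7350 feature IDs listed over all the expression tables. All 10 were listed in each table, and all 10 passed the filter on low values in each comparison.

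RNA was sequenced from *S. cerevisiae* BY4742 cultures to ask how *JHD2*, which encodes a demethylase of histone H3 lysine-4, affects transcripts in media of different carbon and nitrogen sources. The media were YAD (ammonium and glucose), YGD (glutamate and glucose) and YAR (ammonium and raffinose). WT and *jhd2Δ* cells were compared in each medium, from 3 cultures of each strain in YAD, 3 in YGD and 2 in YAR. Cells carrying a multicopy *LEU2* plasmid that expresses FLAG-tagged *JHD2* from the *ADH1* promoter (OE) were compared with cells carrying the empty vector pAD4M (EV) in YAR, with 3 cultures per group, and in YAD. In the study's strain list, the WT strain and the *jhd2Δ* strain, in which the hygromycin cassette replaces *JHD2*, are prototrophic, and the EV and OE strains are *leu2*. The strain list names 1 strain for each genotype. The labels give Mat alpha for WT and Mat a for *jhd2Δ* in YAD and in YGD, Mat a for both in YAR, and Mat alpha for EV and OE, while the strain list gives *MATα* for all of them, so the labels and the list cannot both hold. For OE and EV in YAD, and for EV in raffinose against EV in glucose, the only values used here are the authors' group values, which carry no replicate error.

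Pyruvate decarboxylase removes CO2 from pyruvate and leaves acetaldehyde, and it needs thiamine pyrophosphate to do so. Acetaldehyde is then reduced to ethanol, mainly by Adh1, or oxidised to acetate by aldehyde dehydrogenases, of which Ald6 is cytosolic and Ald4 mitochondrial. Adh2 runs mainly in the opposite direction and lets cells use ethanol, and its gene is known for being repressed by glucose and activated by the transcription factor Adr1 when glucose runs out. Pdc1 is the main decarboxylase of fermenting cells, Pdc5 a second isozyme and Pdc6 a minor one. Adh3 is mitochondrial, Adh4 is a zinc-responsive enzyme of another family, and Adh5 is a further isozyme.

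Each member lies in a single coding exon, and none overlapped another listed feature. In build R64, which gives the same positions as the files for all 10 genes, *PDC1* (YLR044C) is on chromosome XII at 232390 to 234081 (minus strand), *PDC5* (YLR134W) on XII at 410723 to 412414 (plus strand) and *PDC6* (YGR087C) on VII at 651290 to 652981 (minus strand). *ADH1* (YOL086C) is on XV at 159548 to 160594 (minus strand), *ADH2* (YMR303C) on XIII at 873291 to 874337 (minus strand) and *ADH3* (YMR083W) on XIII at 434788 to 435915 (plus strand). *ADH4* (YGL256W) is on VII at 15159 to 16307 (plus strand), and *ADH5* (YBR145W) on II at 533762 to 534817 (plus strand). *ALD4* (YOR374W) is on XV at 1039840 to 1041399 (plus strand), and *ALD6* (YPL061W) on XVI at 432588 to 434090 (plus strand). The lengths in the files are those of the coding sequences, so the values count coding bases only and no promoter.

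Because reads were 51 bases long, sequence shared between isozymes bears on how well each gene could be measured. *ADH1* and *ADH2* have the same base at 88.83% of coding positions, and 139 of their 997 windows of 51 bases are identical. *PDC1* and *PDC5* match at 87.23% of positions and share 15 of 1642 windows, and no window of the other 6 members occurred in another member. The longest stretch shared by *ADH1* and *ADH2* runs over coding bases 193 to 381 (chrXV:160214-160402 in *ADH1* and chrXIII:873957-874145 in *ADH2*, both minus strand, R64), and it is shown because reads from it cannot be assigned to either gene.
ADH1 and ADH2: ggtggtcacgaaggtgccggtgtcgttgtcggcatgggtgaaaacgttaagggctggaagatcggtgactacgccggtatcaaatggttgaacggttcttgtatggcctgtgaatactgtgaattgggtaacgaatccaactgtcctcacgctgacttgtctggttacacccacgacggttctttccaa
The rule by which such reads were divided between both genes was not found in the methods or labels. In the 12 WT and *jhd2Δ* libraries from glucose *ADH2* stood at 4.13 to 6.12 FPKM beside *ADH1* at 18614 to 32928 FPKM, so no more than this small amount of *ADH1* signal was placed on *ADH2* in them.

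Stretches upstream of the 4 genes that differed most between raffinose and glucose, relative to the middle of all features in the group values described further on, are shown next, read from R64. All lie within 800 bases of the start codon. Capitals mark TTGGAG, the core of the Adr1 site, on either strand (CTCCAA on the other one) in *ADH2* and *ALD4*, and CTTCC, the core of the Gcr1 site of glycolytic genes, in *PDC1* and *ADH1*. They are *ADH2* (chrXIII:874587-874657, minus strand), *ALD4* (chrXV:1039605-1039645, plus strand), *PDC1* (chrXII:234651-234716, minus strand) and *ADH1* (chrXV:160759-160789, minus strand).
ADH2: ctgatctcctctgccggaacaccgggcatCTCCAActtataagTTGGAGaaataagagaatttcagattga
ALD4: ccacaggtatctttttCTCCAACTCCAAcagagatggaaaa
PDC1: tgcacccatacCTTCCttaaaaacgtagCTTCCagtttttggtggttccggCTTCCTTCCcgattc
ADH1: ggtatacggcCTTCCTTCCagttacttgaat
The 2 *ADH2* matches lie inside a perfect palindrome of 22 bases, from −292 to −271 counted back from the start codon. Within 800 bases upstream, TTGGAG occurred on either strand 2 times at *ADH2*, 3 times at *ALD4* and 1 time at *ADH4*, and at none of the other 7 members. Of 5997 yeast genes with such a window, 31.73% held at least 1 match. CTTCC occurred 6 times at *ADH1* and 4 times at *PDC1*, where neighbouring matches overlap by 1 base, and 82.04% of all windows held it, so its presence sets no gene apart. The same motif also occurred 3 times at *ADH2*, 3 times at *ADH5* and 2 times at *ALD4*. *PDC6*, *ADH3* and *ADH4* held it 1 time each. The motif of the carbon source-responsive element (CSRE), searched on both strands, occurred 3 times at *ADH2*, where 2 matches overlap each other, and 3 times at *ALD6*. *PDC5* and *ADH3* held it 1 time each, and 32.22% of all windows held at least 1. These are matches of letters, and no binding was measured here.

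Levels are given in FPKM (fragments per kilobase of transcript, scaled to the size of the library), a value that is set per length and can be compared between genes within a library. Sums of FPKM ranged from 818862 to 1610619 over the 22 libraries. The number of reads is unknown except in the *jhd2Δ* and WT table from YAR, where low values came in steps of whole reads (87.0% to 94.7% of low values within 0.1 of a whole step) that correspond to 6137000 to 9728000 fragments per library. These are values of bulk RNA, in which fewer cells expressing a gene and less RNA per cell cannot be told apart. In that YAR table *PDC6*, the lowest member, rested on 24 to 47 fragments. *JHD2* itself stood at 3.97 to 17.5 FPKM in the 8 WT libraries and at 0 to 0.0486 FPKM in the 8 *jhd2Δ* libraries, and at 27.6 to 35.8 FPKM in EV against 1503 to 2213 FPKM in OE in YAR, as the labels imply.

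Mating type markers went with the labels in the deletion tables but not in all plasmid libraries. The summed FPKM of 7 a-specific genes was 46.5 to 221 in the alpha-labelled WT libraries of YAD and YGD and 5624 to 18330 in the a-labelled libraries of all 3 media, and that of 5 alpha-specific genes was 1094 to 5612 and 17.7 to 38. Deletion and mating type therefore cannot be told apart in YAD and YGD, where 6 of 7 a-specific genes were called higher and 5 of 5 alpha-specific genes lower in *jhd2Δ*. In YAR, with both strains labelled Mat a, 1 a-specific gene (*AGA2*) and 1 alpha-specific gene (*MF(ALPHA)1*) were called, both lower. The plasmid libraries are all labelled Mat alpha, yet *STE2*, the receptor of a cells, stood at 369, 225 and 16.8 FPKM in EV 1, 2 and 3 and at 157, 206 and 35.2 FPKM in OE 1, 2 and 3, while *STE3*, the receptor of alpha cells, stood at 4.97, 7.19 and 156 FPKM and at 9.50, 7.35 and 47.7 FPKM. Replicates 1 and 2 of both groups thus carried a-cell markers and EV 3 mainly alpha-cell markers, while OE 3 held both, with a summed FPKM of 751 for the a-specific and 585 for the alpha-specific genes. The part of mating type in the results from these libraries was not tested. A second feature of these libraries is that EV 2 correlated with the OE libraries (r = 0.971 to 0.976 over features) more closely than with EV 1 (0.967) and EV 3 (0.939), although its *JHD2* level was that of the EV group.

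In glucose the route was dominated by 1 decarboxylase and 1 alcohol dehydrogenase. In WT cells in YAD, *ADH1* stood at 19602 ± 1137 FPKM and *PDC1* at 9059 ± 441 FPKM (mean ± SD, n = 3), and together they made up 95.3% to 96.3% of the FPKM of the 10 members. *ALD6* followed at 625 ± 108 FPKM, *ADH3* at 318 ± 30.5 FPKM and *ADH5* at 133 ± 24.7 FPKM. *ALD4* stood at 102 ± 2.21 FPKM, *ADH4* at 52.5 ± 7.65 FPKM and *PDC5* at 25.4 ± 3.74 FPKM, and *ADH2* (5.37 ± 0.305 FPKM) and *PDC6* (4.96 ± 0.914 FPKM) were lowest. Each gene's lowest library was above the highest library of the next gene in this order, except that *ADH2* and *PDC6* overlapped. WT cells in YGD showed the same order with no overlap.

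In raffinose the levels of WT cells lay closer together. In WT cells in YAR, *ADH1* stood at 3271 ± 642 FPKM (n = 2), and next to it were *ADH3* at 987 ± 80.2 FPKM and *PDC1* at 957 ± 277 FPKM, which overlapped. *ALD6* (483 ± 86.1 FPKM) and *ALD4* (393 ± 59.7 FPKM) overlapped, as did *ADH5* (124 ± 29.6 FPKM) and *ADH2* (118 ± 0.978 FPKM). *ADH4* (63.2 ± 14.2 FPKM), *PDC5* (8.19 ± 2.15 FPKM) and *PDC6* (3.04 ± 0.277 FPKM) were lowest and apart from each other. *ADH1* and *PDC1* made up 64.3% and 67.3% of the members' FPKM in the 2 WT libraries. In the same medium they made up 91.5%, 52.1% and 92.2% in EV 1, 2 and 3. The tables of YAD, YGD and YAR were normalised separately, and for these strains no test was made between media. The labelled mating type of WT also differs between YAR and the glucose media.

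**Figure D1:**
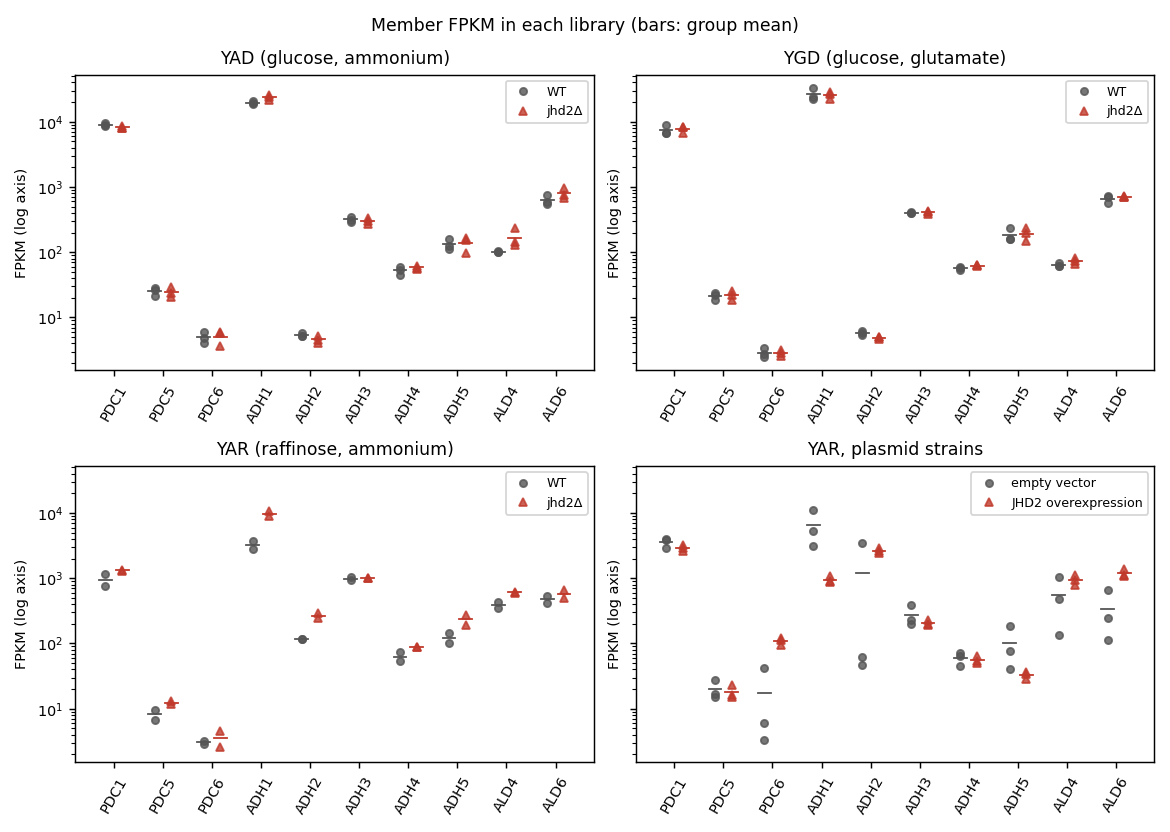
FPKM of the 10 members (log axis) in each library, with 1 panel per table. Grey circles are WT or empty vector libraries, red triangles *jhd2Δ* or *JHD2* overexpression libraries, and short bars group means. In glucose *ADH1* and *PDC1* stand far above the rest, and *ADH2* lies at about 5 FPKM, while in the plasmid strains in YAR 1 of 3 empty vector libraries has *ADH2* at 3493 FPKM.

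The first comparison asked whether loss of *JHD2* changed the members in ammonium and glucose. In YAD, 0 of 10 members passed the test (limma with Benjamini-Hochberg adjustment over 6185 features, adjusted p below 0.05 and a fold above 1.4), while 5.72% of all features were called, 354 in number (1.68% higher and 4.04% lower). Of the members, 3 had an unadjusted p below 0.05, near the share of all features, of which 1777 of 6185 did. *ADH1* was 19346, 18614 and 20845 FPKM in WT and 21463, 24138 and 25285 FPKM in *jhd2Δ*. The groups did not overlap, but the difference was 0.33 ± 0.08 (log2, SE) with a limma adjusted p of 0.0527. *ALD4* was 99.3, 103 and 102 FPKM in WT and 141, 127 and 232 FPKM in *jhd2Δ*, again without overlap. Its difference was 0.71 ± 0.20 (log2) with a limma adjusted p of 0.0775, and without *jhd2Δ* replicate 2 it was called, at 0.91. *ALD6* was 746, 586 and 542 FPKM against 685, 758 and 971 FPKM, groups that overlapped (log2 difference 0.42 ± 0.14, adjusted p = 0.101). The other 7 members overlapped between WT and *jhd2Δ* and had log2 differences of −0.14 to 0.21. The members' median difference was 0.08 beside 0.01 over all features.

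In YGD, where the nitrogen source is glutamate, 0 of 10 members passed the limma test and 0 had an unadjusted p below 0.05. Over all 6213 features 21 were called (0.338%) and 426 had an unadjusted p below 0.05. *ADH1* was 24320, 22178 and 32928 FPKM in WT and 26862, 22456 and 28273 FPKM in *jhd2Δ*, and *PDC1* was 8762, 6820 and 6753 FPKM against 8222, 8256 and 6833 FPKM. Both genes overlapped. *ADH2* was 5.82, 5.43 and 6.12 FPKM in WT and 5.05, 4.74 and 4.95 FPKM in *jhd2Δ*, so its groups did not overlap, with a log2 difference of −0.40 ± 0.25 (adjusted p = 0.792). *ADH4* also did not overlap in FPKM, at 52.9 to 59.5 in WT and 61.2 to 63.1 in *jhd2Δ*, although its fitted difference, which is taken after library scaling, was −0.09. WT replicate 3 stood apart in this table. It had a library scale of 1.595, where the other 5 libraries had 0.837 to 1.016, and it correlated with them at 0.949 to 0.954, where the other pairs had 0.971 to 0.983. Without that library 8 of the 10 fitted differences changed sign and none passed the test. The test of whether the deletion effect differed between YGD and YAD called 0 of 10 members, against 0.0642% of 6227 features.

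In YAR, the raffinose medium, 4 of 10 members rose in *jhd2Δ* and none fell: *ADH1*, *ADH2*, *ADH5* and *ALD4*. Over all 5846 features tested 13.8% were called higher and 8.6% lower. *ADH1*, the main fermentative alcohol dehydrogenase, was 3725 and 2817 FPKM in WT and 8868 and 10607 FPKM in *jhd2Δ*. Both *jhd2Δ* libraries lay above both WT libraries by a wide margin, and the fitted fold was 2.99 (log2 1.58 ± 0.25, SE, limma adjusted p = 0.000458). *ADH2*, the glucose-repressed isozyme whose upstream palindrome is shown above, was 119 and 117 FPKM in WT and 291 and 244 FPKM in *jhd2Δ*. Its fold was 2.25 (log2 1.17 ± 0.19, limma adjusted p = 0.000532).

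*ADH5* was 144 and 103 FPKM in WT and 194 and 275 FPKM in *jhd2Δ*, a fold of 1.89 (log2 0.92 ± 0.22, limma adjusted p = 0.0120). *ALD4*, the mitochondrial aldehyde dehydrogenase, was 436 and 351 FPKM in WT and 615 and 600 FPKM in *jhd2Δ*, a fold of 1.55 (log2 0.63 ± 0.21, limma adjusted p = 0.0416). For each of the 4 genes both *jhd2Δ* libraries were above both WT libraries, but the 4 were picked by a test on these same libraries. In all, 7 of the 10 members did not overlap, among them *PDC1*, *PDC5* and *ADH4*, which were not called. How many of all features did not overlap in YAR was not counted. *ALD6*, the cytosolic counterpart of *ALD4*, was 544 and 422 FPKM against 654 and 500 FPKM, and its groups overlapped (log2 0.25 ± 0.23, adjusted p = 0.454).

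The decarboxylase genes did not pass the test in YAR. *PDC1* was 1153 and 760 FPKM in WT and 1295 and 1341 FPKM in *jhd2Δ*, with no overlap, and its difference of 0.49 ± 0.24 (log2) had a limma adjusted p of 0.153. *PDC5* was 9.71 and 6.67 FPKM against 11.9 and 12.98 FPKM (log2 0.56 ± 0.23, adjusted p = 0.0911), and *PDC6* was 2.84 and 3.23 FPKM against 4.55 and 2.62 FPKM, which overlapped. *ADH4* was 73.2 and 53.2 FPKM against 89.9 and 87.9 FPKM (log2 0.50 ± 0.19, adjusted p = 0.0667). *ADH3*, at 1044 and 931 FPKM against 997 and 1027 FPKM, had the smallest difference of the 10, 0.04 ± 0.21. The 10 fitted differences were all positive, with a median of 0.53 beside −0.01 over all features. Scaling each library to its summed FPKM in place of the median of ratios lowered the median of all features to −0.35, and 2 members, *ADH1* and *ADH2*, were then called. With only 2 cultures per group the calls also depended on each library: 0 members were called without either WT library and 3 without either *jhd2Δ* library. Over all features the 1308 calls fell to 120 without WT 1 and to 42 without WT 2.

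**Figure D2:**
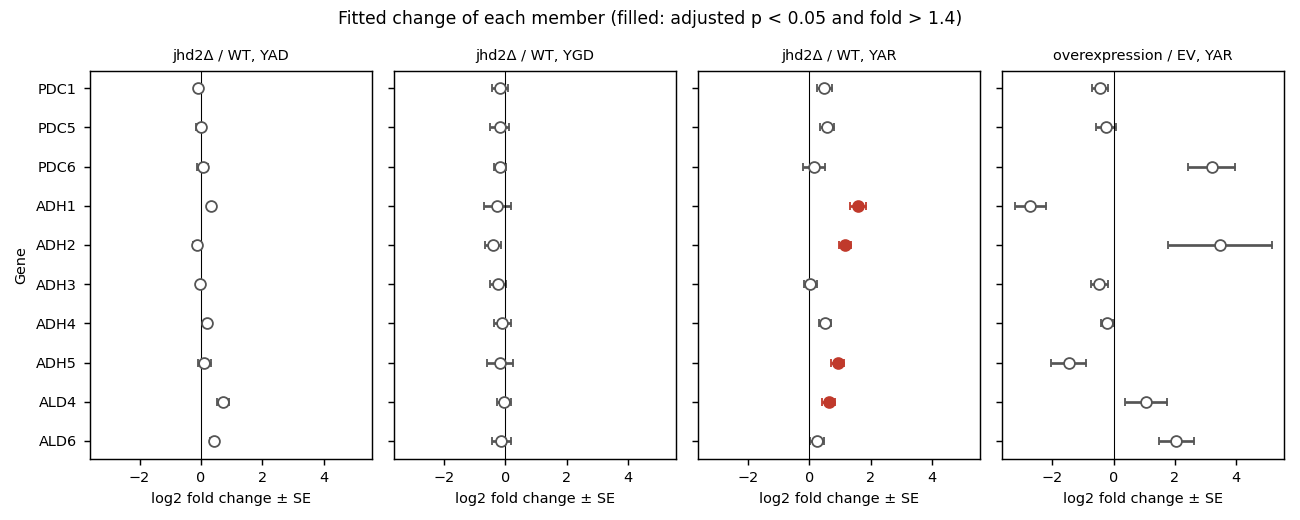
Fitted log2 fold change of each member with its standard error (x axis) in the 4 comparisons with replicate libraries. Filled red points passed the threshold of adjusted p below 0.05 with a fold above 1.4, and open points did not. The filled points are *ADH1*, *ADH2*, *ADH5* and *ALD4* in YAR, and the longest bars belong to the plasmid comparison.

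The deletion effect on *ADH1* and *ADH2* differed between raffinose and glucose. In 1 model of both tables the log2 effect was larger in YAR than in YAD by 1.26 ± 0.21 for *ADH1* (limma adjusted p = 0.00312) and by 1.31 ± 0.17 for *ADH2* (limma adjusted p = 0.00105), beside 23.1% of 6212 features called, 13.8% in this direction and 9.24% in the other. The other 8 members did not pass, and *ALD4* had a difference of −0.08 ± 0.29, so its rise in YAR was not shown to be larger than its difference in YAD. The WT and *jhd2Δ* labels differ in mating type in YAD but not in YAR, so medium and mating type cannot be told apart in this contrast.

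The authors' group values for EV cells address the change from glucose to raffinose itself. The values have no replicates, and no test was made. *ADH2* stood at 14.8 FPKM in glucose and 612 FPKM in raffinose, 41.4-fold higher, and *ALD4* at 89.0 and 269 FPKM, 3.02-fold higher. *PDC6* was 3.39 and 6.32 FPKM, 1.86-fold higher. On the other side, *ADH1* was 21980 and 2509 FPKM, 8.76-fold lower, and *PDC1* was 10740 and 1869 FPKM, 5.74-fold lower. *ADH5* was 4.03-fold lower (158 and 39.2 FPKM), *ALD6* 3.47-fold lower (567 and 164 FPKM), *PDC5* 2.62-fold lower (27.4 and 10.5 FPKM) and *ADH3* 2.24-fold lower (442.5 and 197 FPKM). *ADH4* was 59.0 and 40.9 FPKM, 1.44-fold lower.

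By a fold of 1.4, 3 members were higher and 7 lower in raffinose, against 7.11% and 66.9% of 6241 features, 74% either way. The middle of all features lay at a raffinose to glucose ratio of 0.587. Relative to that shift *ADH4* turned to 1.18 and *ADH3* to 0.759, both within 1.4-fold, and 8 members remained past it. The share of all features past 1.4-fold after this scaling was not counted, so the 8 members have no share beside them. In the EV replicates of the plasmid comparison in YAR *ADH2* was 46.1, 3493 and 62.6 FPKM, so 1 of those 3 cultures held nearly all of its signal. The authors' raffinose group values were 0.365 to 0.731 times the mean of the replicate values for the 10 members, which is no constant multiple, so it is unknown whether the group values were made from those same libraries.

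**Figure D3:**
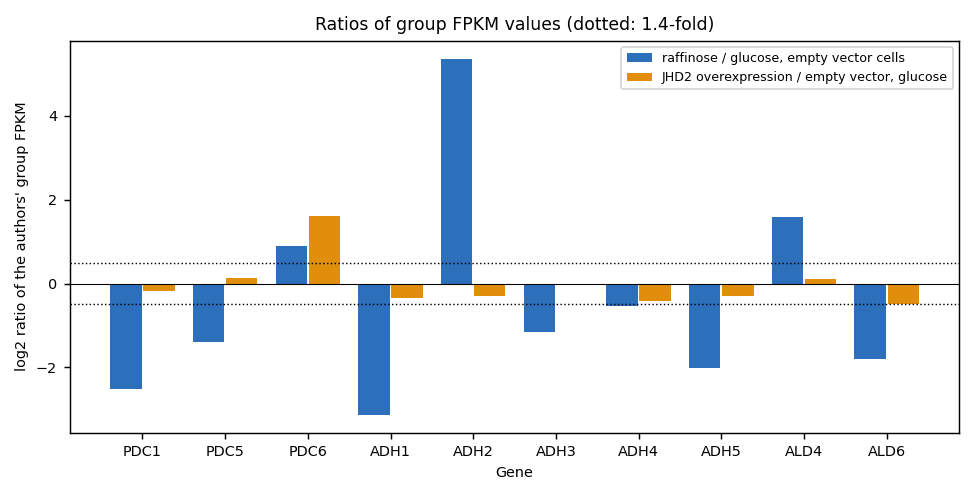
log2 ratio of the authors' group FPKM values for each member, for raffinose over glucose in empty vector cells (blue) and for *JHD2* overexpression over empty vector in glucose (orange), with dotted lines at 1.4-fold. *ADH2* has the highest blue bar and *ADH1* the lowest, while *PDC6* is the one orange bar above the upper line.

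Overexpression of *JHD2* in YAR was compared with EV, and 0 of 10 members passed the limma test, as did 1 of 6331 features (0.0158%), which was *JHD2*. At an unadjusted p below 0.05 there were 904 features and 4 members. *ADH1* was 5294, 3168 and 10971 FPKM in EV 1, 2 and 3 and 911, 880 and 1077 FPKM in OE. The groups did not overlap and the fitted fold was 6.55 lower in OE (log2 −2.71 ± 0.50, unadjusted p = 0.00106, limma adjusted p = 0.257). *PDC6* was 3.37, 42.5 and 6.10 FPKM in EV and 111, 123 and 95.7 FPKM in OE, also without overlap (log2 3.20 ± 0.78, limma adjusted p = 0.284). *ALD6* was 115, 652 and 242 FPKM in EV and 1138, 1381 and 1098 FPKM in OE (log2 2.05 ± 0.57, limma adjusted p = 0.291), and *ADH5* was 77.8, 41.2 and 184 FPKM against 28.9, 36.4 and 34.0 FPKM (log2 −1.46 ± 0.56, limma adjusted p = 0.329). The groups of *ALD6* and *ADH5* did not overlap either, and how many of all features did not overlap was not counted.

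For *ADH2* and *ALD4* the EV libraries themselves divided. *ADH2* was 46.1, 3493 and 62.6 FPKM in EV and 2881, 2634 and 2403 FPKM in OE, so EV 2 was above each OE library while EV 1 and EV 3 were far below (log2 3.46 ± 1.69, limma adjusted p = 0.414). *ALD4* was 137, 1049 and 476 FPKM in EV and 1112, 926 and 799 FPKM in OE (log2 1.06 ± 0.68, limma adjusted p = 0.493). EV 2 was the EV library nearest to the OE mean for 8 of the 10 members, the exceptions being *PDC5* and *ADH4*. *PDC1* (3920, 2863 and 4018 FPKM in EV, 2578, 3192 and 2880 FPKM in OE), *PDC5*, *ADH3* and *ADH4* overlapped between the groups, with log2 differences of −0.46 to −0.22.

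Without EV replicate 2, 4 members were called and 216 features. *ADH2* was then higher in OE by 5.41 (log2, limma adjusted p = 0.00106), *PDC6* by 4.14 (adjusted p = 0.00559) and *ALD6* by 2.66 (adjusted p = 0.0356), and *ADH1* was lower, at −3.18 (adjusted p = 0.0275). This leaves 2 EV libraries, 1 with a-cell and 1 with alpha-cell markers. With replicates 1 and 2 of each group alone, which all carry a-cell markers and include EV 2, 0 members were called, and *ADH1* stood at −2.29 (adjusted p = 0.308). The OE plasmid carries a copy of the *ADH1* promoter, and the values count coding bases only. The study's plasmid list does not say whether pAD4M carries that promoter too. Whether the added promoter copies bear on the *ADH1* values was not tested. The members' median difference was −0.23 beside −0.01 over all features.

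**Figure D4:**
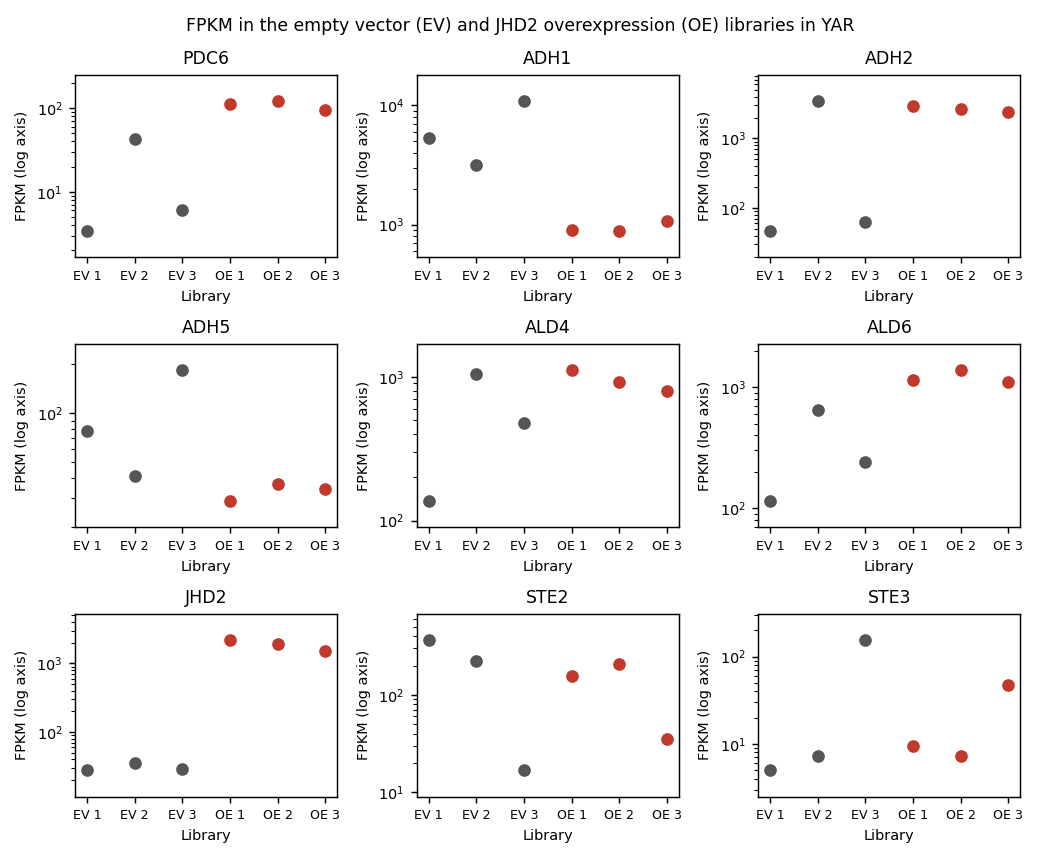
FPKM (log axes) of 6 members, *JHD2* and the mating type receptors *STE2* and *STE3* in each plasmid library in YAR, with empty vector (EV) libraries in grey and *JHD2* overexpression (OE) libraries in red. EV 2 lies with the OE libraries for *ADH2* (3493 FPKM) and *ALD4* (1049 FPKM) but not for *JHD2* (35.8 FPKM), and EV 3 and OE 3 have the lowest *STE2* and the highest *STE3*.

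The opposite manipulations of *JHD2* were also set against each other in YAR. The deletion effect minus the overexpression effect was 4.29 ± 0.70 (log2) for *ADH1*, which rose in *jhd2Δ* and had lower values in OE, with a limma adjusted p of 0.0427. It was the 1 member called, against 0.812% of 6282 features called, 0.653% in this direction and 0.159% in the other. The call rested on single libraries: 0 members were called when any 1 library other than EV 2 or EV 3 was left out, with 10 to 24 features called in place of 51. Without EV 2, 5 members and 776 features were called, and without EV 3, 1 member and 267 features. *ADH5* had a difference of 2.38 ± 0.80 (adjusted p = 0.129). *ADH2*, whose EV and OE values overlapped, had a difference of −2.29 ± 2.30 (adjusted p = 0.562).

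Overexpression in glucose can be described only by group values. By the authors' group values for YAD, *JHD2* was 24.0 FPKM in EV and 6886 FPKM in OE, and 1 of 10 members was past 1.4-fold, against 8.63% of 6223 features (1.96% higher and 6.67% lower). That member was *PDC6*, at 3.03 FPKM in EV and 9.33 FPKM in OE, 3.08-fold higher. *ALD6* was 516 and 371 FPKM, 1.39-fold lower, and *ADH4* 53.5 and 39.9 FPKM, 1.34-fold lower. *ADH1* was 19220 and 15220 FPKM, 1.26-fold lower, *ADH2* 13.1 and 10.7 FPKM and *PDC1* 9551 and 8385 FPKM. There are no replicates behind these ratios, and the middle of all features lay at a ratio of 0.918. The EV and OE group values for YAD held both mating type receptors, with *STE2* at 611 and 395 FPKM and *STE3* at 135 and 67.6 FPKM. By the labels, this comparison and that of the plasmids in YAR share their EV groups with that of raffinose and glucose, so they are not independent of it.

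Shares within a library do not depend on library scaling, and 4 of them were tested in each of the 4 comparisons with replicates, 16 tests in all. The share of *ADH1* in the FPKM of *ADH1* to *ADH5* was 73.0% and 70.1% in WT and 84.95% and 86.7% in *jhd2Δ* in YAR. That is 14.3 points higher in *jhd2Δ*, with an exact two-sided permutation p of 0.333, the smallest that 2 against 2 cultures can give. In YAD it was 97.4% to 97.6% in WT and 97.8% to 98.0% in *jhd2Δ*, also without overlap (exact permutation p = 0.1). In the plasmid strains in YAR the same share was 90.1%, 45.5% and 95.5% in EV and 22.4%, 22.9% and 28.65% in OE. *ADH2* made up 0.863%, 52.4% and 0.568% of *ADH1* plus *ADH2* in EV and 76.0%, 75.0% and 69.1% in OE. Neither share overlapped between EV and OE, and the exact permutation p of 0.1 is the smallest that 3 against 3 can give (0.267 after Benjamini-Hochberg adjustment over the 16 tests).

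*PDC1* kept 98.0% to 99.8% of the decarboxylase FPKM in WT, *jhd2Δ* and EV libraries and 95.3% to 96.3% in OE, where *PDC6* was higher. The difference of −3.16 points between OE and EV had the same smallest exact permutation p of 0.1. *ALD6* made up 84.1% to 88.3% of *ALD4* plus *ALD6* in WT in YAD and 80.7% to 85.65% in *jhd2Δ*, 90.3% to 92.2% and 89.8% to 91.4% in YGD, and 54.6% and 55.5% against 45.5% and 51.5% in YAR. It was 33.7% to 45.6% in EV and 50.6% to 59.8% in OE (exact permutation p = 0.1). None of the 16 shares passed 0.05 after adjustment, and with these group sizes none could.

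Genes on either side of the route were counted from lists of related genes. In YAR, 6 of 6 tested genes of acetate and acetyl-CoA rose in *jhd2Δ*, with a median of 0.85 (log2) beside −0.01 over all features. The counts of this and the following lists in YAR stand beside 13.8% of all features called higher and 8.6% lower. They included *ACS1* (log2 0.86 ± 0.20, limma adjusted p = 0.00677) and *ACS2* (0.91 ± 0.23, adjusted p = 0.0118), which encode acetyl-CoA synthetases, *ATO3* (1.03 ± 0.18, adjusted p = 0.000869), a relative of acetate and ammonium transporters, and *ADY2*, an acetate transporter (0.84 ± 0.21, adjusted p = 0.0102). *ACS2* was 234 and 159 FPKM in WT and 321 and 410 FPKM in *jhd2Δ*. Of 12 genes of pyruvate use and entry into mitochondria, 3 rose and 1 fell. *PDA1* (1.17 ± 0.20) and *PDB1* (0.87 ± 0.20), subunits of pyruvate dehydrogenase, and *PYK2*, a pyruvate kinase (0.59 ± 0.18), were higher, and *MPC1*, of the mitochondrial pyruvate carrier, was lower (−0.84 ± 0.19). The calls of all lists in YAR rest on 2 cultures per group. Over all features the 1308 calls fell to 120 without WT 1 and to 42 without WT 2, and list genes were not followed in those fits.

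Of 9 other alcohol and aldehyde dehydrogenases 1 rose in YAR, the butanediol dehydrogenase gene *BDH1* (1.15 ± 0.21, limma adjusted p = 0.00156), from 413 and 369 FPKM in WT to 928 and 812 FPKM in *jhd2Δ*. Of 9 tested genes of thiamine supply 3 rose, led by *THI4*, which makes the thiazole part of the cofactor (1.43 ± 0.22, limma adjusted p = 0.000399). Of 14 regulators of these genes 1 changed, *GCR2*, an activator of glycolytic genes, which fell by 0.62 on the log2 scale (limma adjusted p = 0.0210). The counts of 1 of 9 and 1 of 14 are near the shares of all features. *ADR1* (0.24, adjusted p = 0.373) and *CAT8* (0.05, adjusted p = 0.885), which encode activators of *ADH2*, did not pass.

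In YAD, where 4.04% of all features were called lower, 2 of 12 genes of pyruvate use fell, *PDB1* (log2 −1.75 ± 0.20, limma adjusted p = 0.00778) and *PYC1*, a pyruvate carboxylase (−0.68 ± 0.10, adjusted p = 0.0115), and none of the other 4 lists of the route had a called gene. In YGD limma called 0 of the 49 tested genes of the 5 lists, of which 2 had an unadjusted p below 0.05, and in the plasmid comparison in YAR 0 of 50, of which 12 had an unadjusted p below 0.05. *PDB1* was 178, 207 and 124 FPKM in WT and 39.3, 48.7 and 53.7 FPKM in *jhd2Δ* in YAD, while in YAR it was 157 and 125 FPKM against 229 and 288 FPKM. The deletion effect on *PDB1* was larger in YAR than in YAD by 2.615 ± 0.31 (log2, limma adjusted p = 0.000735). The labels of WT and *jhd2Δ* differ in mating type in YAD but not in YAR. Mating type therefore cannot be told apart from the deletion in the YAD calls, or from the medium in this contrast.

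From glucose to raffinose in EV cells, by group values past 1.4-fold, 3 of 6 genes of acetate and acetyl-CoA were higher, among them *ACS1* (10.3 and 32.1 FPKM, 3.101-fold) and *ADY2* (0.787 and 5.08 FPKM, 6.46-fold), and 1 was lower. Of the genes of pyruvate use 10 of 12 were lower, with *CDC19*, the main pyruvate kinase, 8.33-fold lower, and of the other dehydrogenases 6 of 9 were lower and 1 higher. Of the regulators 8 of 14 were lower, with *GCR1* 4.11-fold lower, and 3 higher, with *ADR1* at 4.93 and 16.5 FPKM, 3.35-fold higher. Of 9 thiamine genes 3 were lower and 1 higher, and all 12 mating type genes were lower. These counts stand beside the same 66.9% of all features lower and 7.11% higher. In YAD with overexpression, 0 of the 9 other dehydrogenases, 0 of the 12 genes of pyruvate use and 0 of the 14 regulators were past 1.4-fold, while 1 of 5 acetate genes, 3 of 9 thiamine genes, 6 of 7 a-specific and 5 of 5 alpha-specific genes were lower. Beside these counts of overexpression in YAD, 6.67% of all features were lower and 1.96% higher.

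The features whose log2 level followed each member most closely were found over the 22 libraries after centring each table, among 6280 features, and r is given as a description. *ADH1* was followed most closely by *TUB1* (r = 0.956) and *ACH1* (0.932), *ADH2* by *NCA3* (0.971) and *HXT3* (0.964), and *ADH5* by *ARG4* (0.940). *PDC1* was followed by *HIS4* (0.942), *PDC5* by *ILV3* (0.931) and *PDC6* by *HEF3* (0.959). *ADH3* was followed by *AAP1* (0.944), *ADH4* by *OLA1* (0.899) and *ALD4* by *CAR2* (0.939). *ALD6* was followed most closely by a fellow member, *PDC6* (0.932), and *PDC6* and *ADH2* had r = 0.929, while *PDC6* and *ADH1* had −0.736. All the values share the same libraries. Within EV in YAR *ADH2* ran from 46.1 to 3493 FPKM and *PDC6* from 3.37 to 42.5 FPKM. Within WT in YAD they ran from 5.18 to 5.72 and from 4.09 to 5.91 FPKM. The r values of *ADH2* and *PDC6* thus rest mainly on the plasmid libraries. *ADH1*, *ADH5*, *ALD4* and *ALD6* also spread widely within EV, with *ALD4* from 137 to 1049 FPKM and *ALD6* from 115 to 652 FPKM. How far the r values of the other members rest on the plasmid libraries was not tested.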

How the data were processed

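Stranded, rRNA-depleted libraries were sequenced as single-end reads of 51 bases. Per the submitters' notes, reads were processed with FastQC 0.10.1, TopHat2 2.0.12, Bowtie2 2.1.0 and Cufflinks with Cuffdiff 2.1.1, on the yeast genome build and SGD gene models named in the study's methods, and spike-in RNA was added. The deposited FPKM values were made by the authors with this software, per replicate in 4 tables and as group values in 2 comparison tables. Their fold changes, p-values and q-values were not used. A set of 6 columns given for EV and OE in YAD held the same values as the YAR table for all 7041 features and was not used. Groups were taken from the labels, which give 10 samples, and the 22 replicate libraries from the column names. The p-values measure the spread between the cultures of a group, which in the plasmid table differed in mating type markers.

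FPKM values were multiplied by a median-of-ratios library scale within each table, log2-transformed with a pseudocount of 1 and fitted with limma 3.58.1 in R 4.3.3 (trend and robust options) for features whose mean FPKM reached 1. Fold changes are on this log2(FPKM + 1) scale, which understates changes of low genes. P-values were adjusted by Benjamini-Hochberg over all features, and a feature was called at an adjusted p below 0.05 with a fold above 1.4. Differences between effects were contrasts in 1 model of 2 tables. Shares were compared by exact two-sided permutation tests in scipy 1.17.1. Group values were compared by ratio with no test. The fit was tested on simulated data with independent noise and the spread of the WT libraries in YAD. That setting lacks the uneven EV libraries and mixed mating type markers of the plasmid comparison.

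Depth is unknown outside the YAR deletion table, so no counting interval is given. All 10 members are named in the text. From lists of related genes, called genes are named, or group-value ratios of chosen examples. The members and lists were chosen with earlier results of these data known. Alternatives were other pseudocounts, filters, library scales, a plain variance fit, a replicate block and leaving out each library. The fit on replicates 1 and 2 of EV and OE alone was chosen after seeing the data. Sequences and positions were read from RefSeq build R64.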

Additional observations from a re-analysis of the deposited data

Results flagged for a closer look

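The effect of *JHD2* deletion differed between media for *ADH1*, by 1.26 on the log2 scale (YAR minus YAD), and for *ADH2*, by 1.31, each by a test of the difference itself in 1 limma model. In glucose *ADH2* stood at 4.13 to 5.72 FPKM in the 6 libraries of YAD, and in raffinose at 117 to 291 FPKM in the 4 libraries of YAR. The labelled mating type of WT also differs between these media.

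The effects of deletion and of overexpression in YAR differed for *ADH1* by 4.29 on the log2 scale, again by a test of the difference. The EV libraries of this contrast ranged from 3168 to 10971 FPKM for *ADH1*, and they differed in mating type markers.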

How the results depend on the processing

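The calls of *ADH1* and *ADH2* in YAR held under each other pseudocount, filter and library scale. The number of members called in YAR, 4, became 2 with a plain variance fit, 2 when scaled to the sum of FPKM and 1, *ADH2*, with the replicate block (*ADH1* then had a limma adjusted p of 0.0692). *ALD4* alone also lost its call with no filter on low values (limma adjusted p = 0.0582). With the replicate block, the difference between deletion and overexpression called 0 members. Replicate numbers were not treated as pairs. Deviations from the group mean correlated between same-numbered libraries at 0.158, 0.0592 and 0.112 in YAD and at −0.105, 0.0201 and 0.0984 in YGD. They correlated at −0.0404 in YAR and at 0.162, −0.0447 and 0.12 in the plasmid comparison. In YAD each library correlated best with its own number. So did the libraries numbered 3 in YGD and those numbered 1 and 3 in the plasmid comparison. The part of such pairing was not tested beyond the replicate block. The 4 features called in YGD minus YAD became 2 with no library scale and 2 when scaled to the sum. Features called with the replicate block were 180 in YAD, 13 in YGD, 174 in YAR and 14 for deletion minus overexpression. Other changes by over 1.5 times, with all libraries kept, were, in YAR, 410 features with a plain variance fit and 2107 when scaled to the sum of FPKM; in YAD, 204 at a mean FPKM of at least 10 and 126 with a pseudocount of 10; and for deletion minus overexpression, 137 with a pseudocount of 0.1, 82 at a mean of at least 10, 31 with no library scale and 1219 when scaled to the sum.

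Without library scaling, which moved the median of all features by 0.201 in YGD and 0.263 in the YGD minus YAD difference, signs turned in YGD for *ADH3* (0.00733), *ADH4* (0.139), *ADH5* (0.0602), *ALD4* (0.204), *ALD6* (0.111), *PDC1* (0.0668), *PDC5* (0.0392) and *PDC6* (0.00165), and in the difference for *ADH3* (0.0907), *ADH5* (0.0121), *PDC1* (0.208) and *PDC5* (0.103). Scaled to the sum, they turned in YGD for *ADH4* (0.0354), *ALD4* (0.10) and *ALD6* (0.00584), in YGD minus YAD for *PDC1* (0.115) and *PDC5* (0.0146), in YAR for *ADH3* (−0.312), *ALD6* (−0.0952) and *PDC6* (−0.116), in YAR minus YAD for *ADH3* (−0.217) and *PDC6* (−0.122), in deletion minus overexpression for *ADH3* (−0.137), and in OE for *ADH4* (0.0581) and *PDC5* (0.0392). *PDC5* also turned with replicates 1 and 2 of EV and OE alone (0.128). None of these passed the test, and the cause was not tested.

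Leaving out 1 library at a time, 0 to 1 members were called in YAD, 0 to 3 in YAR, 0 to 4 for OE and 0 to 5 for deletion minus overexpression. Features called ran from 147 to 373 in YAD, 12 to 38 in YGD (38 without WT 3), 42 to 1166 in YAR, 2 to 216 for OE, 838 to 1659 for YAR minus YAD (838 without WT 2 of YAR), 3 to 6 for YGD minus YAD and 10 to 776 for deletion minus overexpression. Ranges that crossed 0 were, in YGD, *ADH1* −0.512 to 0.204, *ADH3* −0.374 to 0.0718, *ADH4* −0.275 to 0.23, *ADH5* −0.412 to 0.295, *ALD4* −0.19 to 0.227, *ALD6* −0.366 to 0.235, *PDC1* −0.366 to 0.0577 and *PDC5* −0.417 to 0.121; in YGD minus YAD, *ADH2* −0.425 to 0.0214, *ADH3* −0.349 to 0.0972, *ADH4* −0.488 to 0.0171, *ADH5* −0.518 to 0.19, *PDC1* −0.284 to 0.14 and *PDC5* −0.408 to 0.129; in YAD, *ADH3* −0.0694 to 0.0209, *ADH5* −0.0336 to 0.285, *PDC5* −0.152 to 0.115 and *PDC6* −0.0683 to 0.206; in YAR, *ADH3* −0.0428 to 0.113 and *PDC6* −0.152 to 0.456; in YAR minus YAD, *ADH3* −0.0174 to 0.138, *ALD4* −0.276 to 0.15, *ALD6* −0.353 to 0.0207 and *PDC6* −0.214 to 0.394; for OE, *PDC5* −0.452 to 0.0989; and for deletion minus overexpression, *ALD4* −1.05 to 0.388. For shares, in percentage points, they were *ADH1* −0.236 to 0.0851, *ALD6* −0.971 to 0.0168 and *PDC1* −0.0263 to 0.0493 in YGD, and *PDC1* −0.053 to 0.016 in YAD and −0.123 to 0.0857 in YAR.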
